A study of Homo sapiens with 12 samples.

Results

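The protocadherins are the largest group within the cadherin family of adhesion proteins. The 63 genes described here are those whose array annotation symbol is PCDH followed by a number, or that belongs to the numbered alpha, beta or gamma series, leaving out the Y-linked PCDH11Y; PCDH11X, whose symbol ends in a letter, falls outside that pattern. They are 63 of the 20047 genes in the annotation and were read by 118 probes. Of them, 53 lie in the alpha (15 genes), beta (16) and gamma (22) clusters of chromosome 5, and 10 are solitary genes.

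In the clusters, each gene supplies its own starting exon and promoter, and the alpha and gamma genes splice that exon to constant exons shared by their cluster. Neurons choose a small set of these promoters, through CTCF, cohesin and DNA methylation, and the resulting surface proteins let a neuron recognise its own branches. The solitary genes are mostly of the delta-1 (PCDH1, PCDH7, PCDH9) and delta-2 (PCDH8, PCDH10, PCDH18, PCDH19) classes, which act in cell sorting, migration and axon growth and have cytoplasmic tails that bind actin regulators.

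Expression was read with Illumina HT-12 bead arrays for 4 groups of 3 arrays, which the labels call biological replicates, and all groups came from the H9 human embryonic stem cell line. LSB were unsorted cells at day 11, labelled neuroepithelial. NPC-NC were cells induced without feeders and sorted for HNK1 and p75 at day 18. MS5-NC were induced on MS5 feeder cells and sorted for HNK1 and p75 at day 35, and sox10-NC were Wnt-induced cells of a sox10::GFP line of H9, sorted for GFP at day 11; the 3 sorted groups are labelled neural crest. LSB and sox10-NC share their day and NPC-NC and MS5-NC their sort, but in every comparison several of day, induction, reporter and sorting differ together and cannot be told apart. In bulk RNA of this kind, fewer cells expressing a gene and less RNA per cell cannot be told apart.

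The labels were set against marker genes. Of 8 neural crest markers, all 8 were detected on every sox10-NC array, while SOX10, FOXD3 and TFAP2B were detected on none of the LSB, NPC-NC and MS5-NC arrays. The labelled identity of NPC-NC and MS5-NC thus lacked those defining genes. NGFR, the gene of p75, was also detected on no MS5-NC array, and PAX3 on no NPC-NC array. ERBB3, SNAI2 and TFAP2A were detected on at least 1 array of both groups. None of the 8 was called against LSB in either group. Of 6 neuroepithelial markers, SOX1 was detected in no group, and the other 5 were detected on all LSB, NPC-NC and MS5-NC arrays and called lower in sox10-NC, where OTX2 and SOX2 were detected on all 3 arrays, HES5 on 2, and PAX6 and LHX2 on none. Across the 12 arrays the median raw signal was 93.4 to 114, with a median of 18 to 22 beads per probe, and 14616 to 17101 of 47322 probes were detected (detection p under 0.01).

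Most beta and alpha promoters and 10 of 20 gamma promoters carried a short run of bases that many genes of their cluster share, shown here because the promoter is what distinguishes one clustered gene from its neighbour. RefSeq promoters (GRCh38.p14, 250 bases before to 50 after the annotated start) were found for 55 of the 63 genes. The lines below are 60-base stretches, all on the plus strand and read 5′ to 3′, of the 8 beta genes, 2 alpha genes and 1 gamma gene that were detected and tested and that carry their cluster's run. Capitals mark the run, which holds the CGCT core of the element known from clustered protocadherin promoters.
PCDHB2, chr5:141094529-141094588: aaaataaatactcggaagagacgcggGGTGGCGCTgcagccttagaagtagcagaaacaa
PCDHB3, chr5:141100378-141100437: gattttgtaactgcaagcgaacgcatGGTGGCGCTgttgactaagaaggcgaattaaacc
PCDHB4, chr5:141121708-141121767: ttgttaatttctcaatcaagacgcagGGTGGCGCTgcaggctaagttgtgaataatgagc
PCDHB5, chr5:141135164-141135223: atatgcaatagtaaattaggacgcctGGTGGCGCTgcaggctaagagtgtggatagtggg
PCDHB9, chr5:141187059-141187118: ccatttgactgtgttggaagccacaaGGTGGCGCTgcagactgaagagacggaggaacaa
PCDHB10, chr5:141192284-141192343: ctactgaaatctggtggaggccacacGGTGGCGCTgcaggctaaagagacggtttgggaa
PCDHB12, chr5:141208628-141208687: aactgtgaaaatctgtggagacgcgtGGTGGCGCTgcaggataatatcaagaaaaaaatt
PCDHB15, chr5:141245299-141245358: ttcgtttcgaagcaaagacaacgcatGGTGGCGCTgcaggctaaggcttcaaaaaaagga
PCDHA1, chr5:140786073-140786132: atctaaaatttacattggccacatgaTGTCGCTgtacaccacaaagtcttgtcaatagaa
PCDHA2, chr5:140794768-140794827: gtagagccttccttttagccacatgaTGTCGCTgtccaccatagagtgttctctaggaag
PCDHGB6, chr5:141407910-141407969: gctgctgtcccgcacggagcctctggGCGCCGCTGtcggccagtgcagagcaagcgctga

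The runs were picked from these promoters themselves and then counted on both strands. GGNGGCGCT was in 13 of the 14 beta promoters, all but PCDHB1, in no alpha, gamma or solitary promoter, and in 3.74% of 35116 promoters of the same length. TGTCGCT was in 10 of 13 alpha promoters and 1.76% of all, and also in 3 of 20 gamma promoters, 1 of 14 beta promoters (PCDHB4) and that of PCDH15. GCGCCGCTG was in 10 of 20 gamma promoters, no alpha, beta or solitary one, and 1.28% of all. Among the 14 beta genes with a promoter found, the beta run was in all 10 detected on any array and in 3 of the 4 never detected. PCDHB6 and PCDHB11, also never detected, had no promoter found.

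Few protocadherins were detected in any of these cells. A gene counted as detected on an array where any of its probes had a detection p under 0.01. Between 13 and 21 of the 63 genes were detected per array (20.6% to 33.3%), against 46.1% to 52.9% of the 20047 annotated genes. The counts were 13 to 18 on the LSB arrays, 19 to 21 on NPC-NC, 18 to 19 on MS5-NC and 13 to 17 on sox10-NC. Of the solitary genes, 2 to 4 of 10 were detected per array in LSB and in sox10-NC, against 6 to 7 in NPC-NC and 5 to 7 in MS5-NC. Of all annotated genes, 48.4% to 52% were detected per array in LSB and 46.1% to 48.4% in sox10-NC. The shares were 51.7% to 52.9% in NPC-NC and 50.4% to 52% in MS5-NC. Clustered genes numbered 10 to 16 per array in LSB, 12 to 15 in NPC-NC, 11 to 13 in MS5-NC and 10 to 13 in sox10-NC, ranges that overlap. These counts were not tested.

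**Figure D1:**
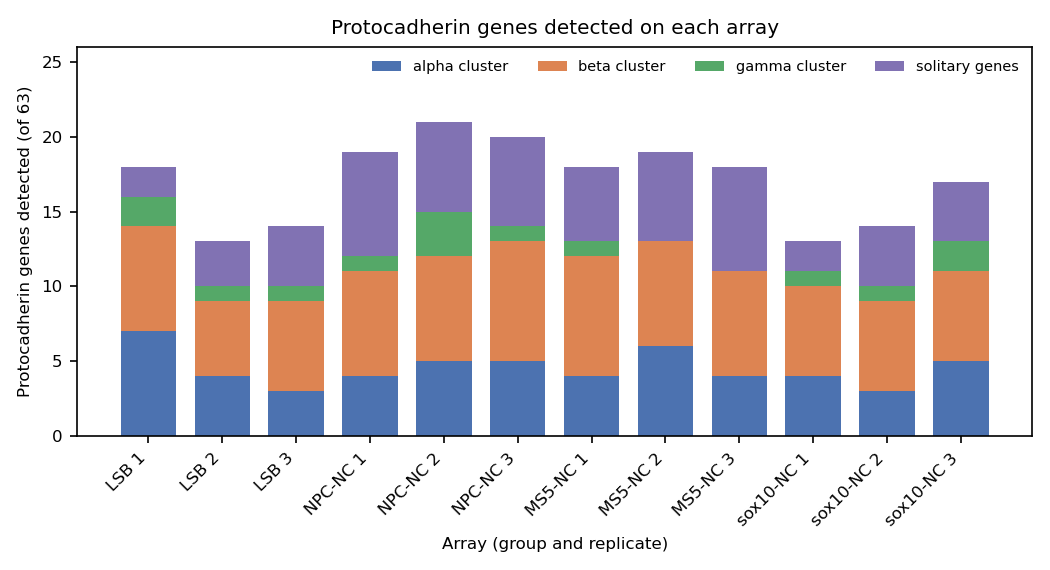
Number of the 63 protocadherin genes detected on each of the 12 arrays (x axis, group and replicate), stacked by alpha, beta and gamma cluster and solitary genes. The NPC-NC arrays have 19 to 21 genes and the MS5-NC arrays 18 to 19, and the number of solitary genes is lowest in LSB and sox10-NC, at 2 to 4 per array.

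Over the 12 arrays, 34 genes were detected at least somewhere and 29 on no array. The genes never detected were PCDHA6, PCDHA8, PCDHA10 and PCDHA13 of the alpha cluster, PCDHB1, PCDHB6, PCDHB7, PCDHB8, PCDHB11 and PCDHB13 of the beta cluster, 16 of the 22 gamma genes (PCDHGA1, PCDHGA2, PCDHGA4, PCDHGA6, PCDHGA8, PCDHGA9, PCDHGA10, PCDHGA11, PCDHGB1 to PCDHGB5, PCDHGB7, PCDHGC4 and PCDHGC5), and the solitary PCDH1, PCDH8 and PCDH12, the last known from endothelium. The endothelial markers PECAM1, CDH5 and KDR were also detected on no array. A further 14 genes, all clustered, had no probe detected on 3 or more arrays and were not tested. They were PCDHA4, PCDHA5, PCDHA7, PCDHA11, PCDHA12, PCDHAC1 and PCDHAC2, PCDHB14 and PCDHB16, and PCDHGA3, PCDHGA5, PCDHGA7, PCDHGA12 and PCDHGC3, each detected on 1 to 4 arrays in all, through different probes in the case of PCDHAC2.

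**Figure D2:**
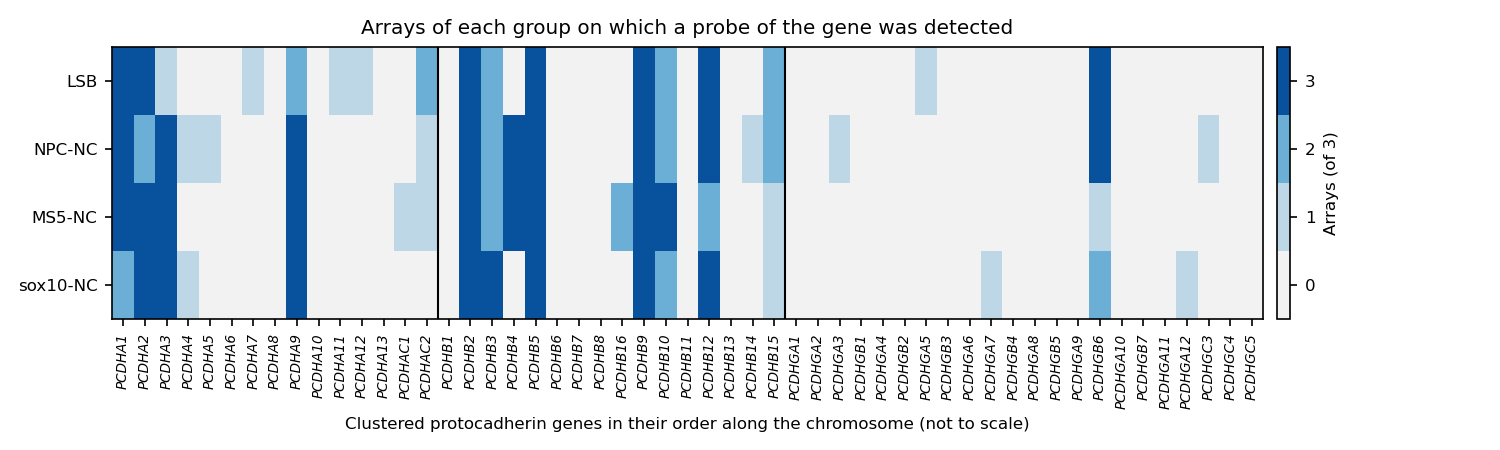
Each column is 1 of the 53 clustered genes in its order along chromosome 5, each row a group, and the shade gives the number of arrays (0 to 3) on which any probe of the gene was detected; vertical lines part the alpha, beta and gamma clusters. Detection is spread over the alpha and beta clusters, and PCDHGB6 is the 1 gamma gene detected on more than 1 array.

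The remaining 20 genes had a probe detected on at least 3 arrays and were tested: 4 alpha, 8 beta and 1 gamma gene, 2 delta-1 genes, 3 delta-2 genes, PCDH15 and PCDH20. Each was represented by its detected probe of highest mean, and levels are background-corrected, quantile-normalised log2 signals, which compare the same probe between arrays and not 1 gene with another. All 12 arrays entered 1 limma fit over 11280 genes. A call needed an adjusted p (Benjamini-Hochberg) below 0.05, a 2-fold difference, and detection on 2 or more arrays in whichever group was higher. Of the 20, 8 were called in at least 1 of the 6 comparisons: the solitary PCDH7, PCDH9, PCDH15, PCDH18, PCDH19 and PCDH20 and the clustered PCDHA2 and PCDHGB6. Of all 11280 genes, 37.7% were called in at least 1. Without background correction 14 of the 20 calls of a gene in a comparison were lost, and with a larger offset 11; every call of PCDH7, PCDH15, PCDHA2 and PCDHGB6 ended in both, and the rest were of PCDH9, PCDH19 and PCDH20, all with an adjusted p still under 0.05 except PCDH15 in NPC-NC against sox10-NC (0.0528 without background correction).

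The first question is how each sorted group differed from the day 11 neuroepithelial cells; the 3 comparisons share the LSB arrays. In NPC-NC against LSB, 2 of the 20 genes were called higher (PCDH19, PCDH20) and 1 lower (PCDH18), where 10.2% of all genes tested were called higher and 4.84% lower. In MS5-NC against LSB, 3 were higher (PCDH9, PCDH19, PCDH20) and 2 lower (PCDH18, PCDHGB6), against 13% and 7.85% of all genes. In sox10-NC against LSB, 2 were higher (PCDH7, PCDH15) and 1 lower (PCDH19), against 9.77% and 8.64%. The members' share of calls was thus near that of all genes in each. The median difference of the 20 genes was 0.02 log2 in NPC-NC, 0.18 in MS5-NC and 0.21 in sox10-NC, beside 0.01, 0.00 and -0.02 for all genes.

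**Figure D3:**
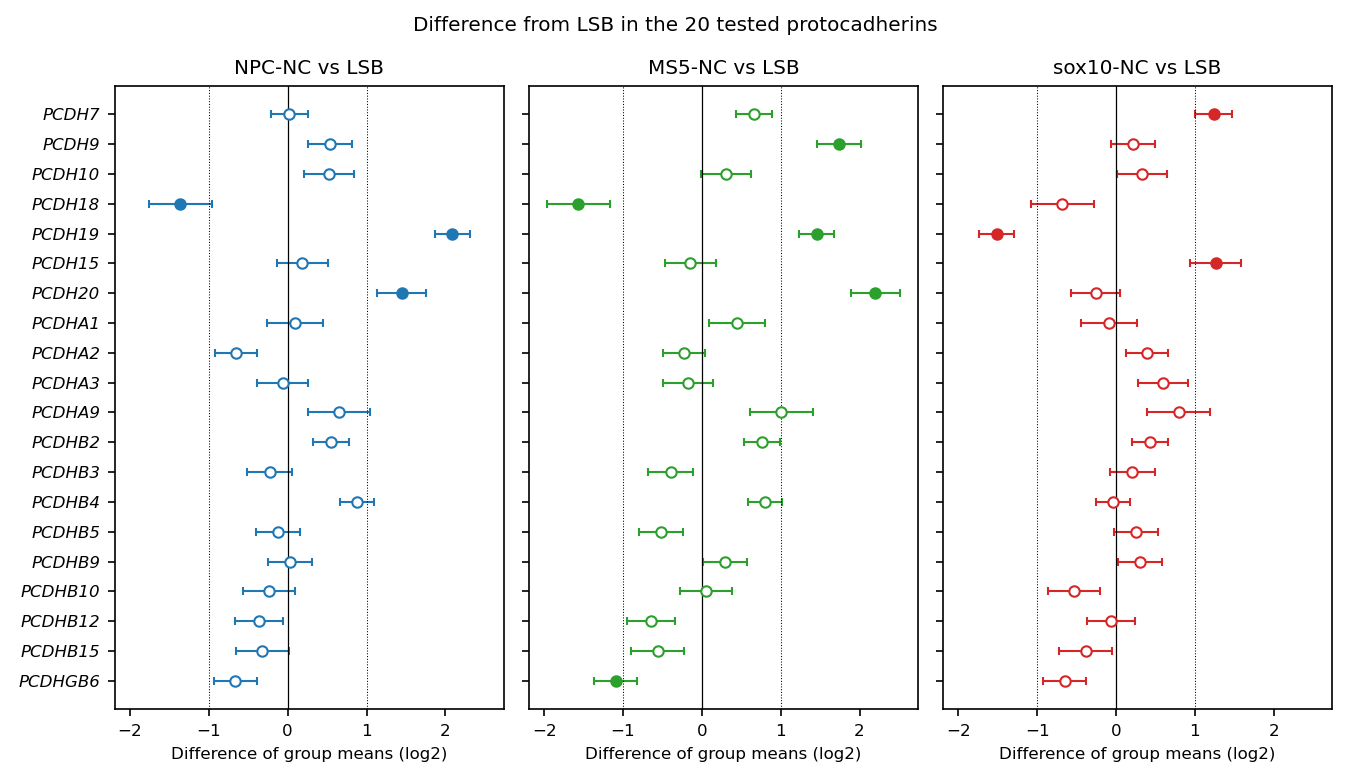
Difference from LSB of the 20 tested genes (y axis) as group mean minus LSB mean in log2 units (x axis), with bars of 1 standard error from the limma fit; filled points were called and dotted lines mark a 2-fold difference. PCDH19 lies furthest to the right in NPC-NC and furthest to the left in sox10-NC, and the clustered genes stay within the dotted lines except PCDHGB6 and PCDHA9 in MS5-NC, of which PCDHGB6 was called.

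The second question is how the 2 groups sorted for HNK1 and p75 differed from the Wnt-induced crest cells and from each other. In NPC-NC against sox10-NC, 2 genes were called higher (PCDH19, PCDH20) and 3 lower (PCDH7, PCDH15, PCDHA2), where 9.31% of all genes were called higher and 4.73% lower. In MS5-NC against sox10-NC, 3 were higher (PCDH9, PCDH19, PCDH20) and 1 lower (PCDH15), against 10.8% and 6.57%; the arrays of sox10-NC are shared by these comparisons. Median differences of the 20 genes were -0.08 and -0.10 log2, beside 0.01 and -0.00 for all genes. Between NPC-NC and MS5-NC limma called none of the 20, where 0.0355% of all genes were called higher and 0.0443% lower, and 4 of the 20 had an unadjusted p under 0.05 (PCDH7, PCDH9, PCDH19 and PCDH20).

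Among the delta-2 genes, PCDH19, an X-linked gene whose mutation causes an epilepsy of childhood, varied most. Its levels on the LSB arrays were 6.37, 6.18 and 6.08 (probe ILMN_1805132). They were 8.01, 8.65 and 8.23 in NPC-NC and 7.70, 7.71 and 7.60 in MS5-NC. On the sox10-NC arrays they were 4.56, 4.64 and 4.91, and the probe was not detected on any of them. No group's arrays overlapped another's, in the order NPC-NC, MS5-NC, LSB, sox10-NC. NPC-NC exceeded LSB by 2.09 ± 0.22 log2 (SE), with an adjusted p of 3.27e-06 in limma, and MS5-NC exceeded it by 1.46 ± 0.22 (7.3e-05). Against sox10-NC, which was not well above background, the fold was 7.48 or more for NPC-NC (9.95e-10), 4.83 or more for MS5-NC (9.51e-09) and 1.76 or more for LSB (4.78e-05). These lower bounds set each undetected array at the lowest signal detected on it. The difference of 0.63 between NPC-NC and MS5-NC was not called (adjusted p 0.328).

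PCDH18, the other delta-2 gene called, was detected on all 12 arrays and had its highest levels in LSB, at 9.64, 9.54 and 9.29 (ILMN_2229877). NPC-NC arrays read 9.02, 7.81 and 7.56, and MS5-NC arrays 8.81, 7.86 and 7.10. The sox10-NC arrays read 9.14, 8.21 and 9.08. Every array of the sorted groups lay below every LSB array, while the sorted groups overlapped each other and spread widely. PCDH18 fell by 1.36 in NPC-NC (SE 0.40, adjusted p 0.0163 in limma) and by 1.57 in MS5-NC (SE 0.40, 0.00495), and the difference in sox10-NC, -0.68, was not called (0.201). The NPC-NC call was lost without LSB replicate 1 or 2, or NPC-NC replicate 2 or 3, and with no detection filter (adjusted p up to 0.0829 over all alternatives). A second probe of PCDH18 was called in the same 2 comparisons, at -1.10 and -1.27 log2.

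PCDH10, the last delta-2 gene tested, which promotes axon growth and binds the WAVE complex, was called in no comparison, with levels of 4.75 to 6.0 and detection on 7 arrays. Its other 2 probes were detected on 2 arrays of MS5-NC and on none.

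**Figure D4:**
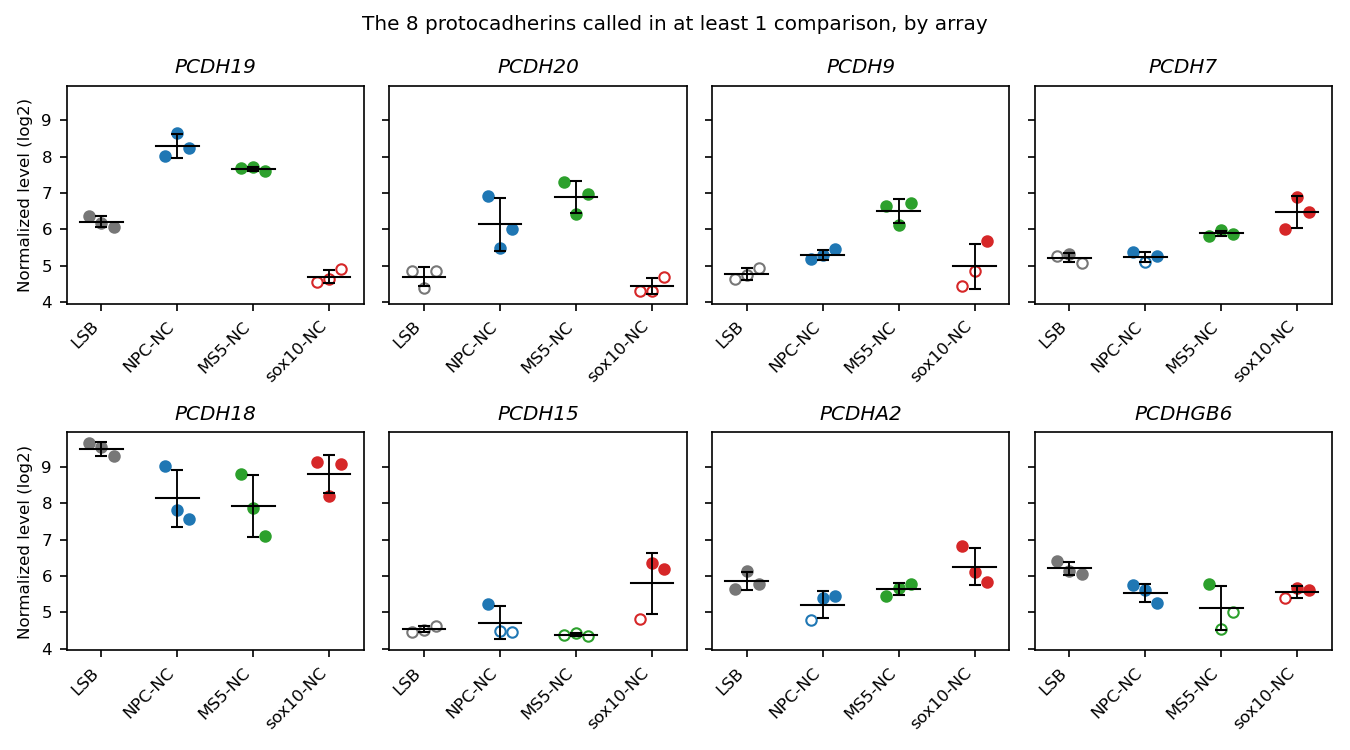
Normalized log2 level of each of the 8 called genes on the 12 arrays, 1 panel a gene, coloured by group; open circles are arrays on which the probe was not detected, and black lines give the group mean with bars of 1 SD (n = 3). PCDH19 and PCDH20 are open in every sox10-NC array and filled in every NPC-NC and MS5-NC array. Heights compare groups within a panel, not genes.

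Of the delta-1 genes, PCDH9 was highest in MS5-NC. Its probe ILMN_1752294 gave 4.62, 4.73 and 4.94 on the LSB arrays, none of them detected, and 5.18, 5.28 and 5.45 in NPC-NC. In MS5-NC it gave 6.64, 6.13 and 6.74, and in sox10-NC 4.43, 4.85 and 5.67, where only the third array was detected. The MS5-NC arrays lay above all others. PCDH9 was at least 2.44-fold higher in MS5-NC than in LSB (adjusted p 1.18e-04 in limma) and 2.86-fold higher than in sox10-NC (1.52 ± 0.28 log2, 4.2e-04). With the 2 undetected sox10-NC arrays at the lowest signal detected on them, a setting chosen after seeing the data, the latter was 2.04-fold. The difference between NPC-NC and MS5-NC, -1.19 ± 0.28, did not pass (0.164), although the arrays did not overlap. The other 2 probes of PCDH9 were detected on no array.

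PCDH7, a delta-1 protein known in frog embryos for adhesion of ectodermal cells, was highest in sox10-NC. Levels were 5.26, 5.33 and 5.09 in LSB and 5.37, 5.10 and 5.27 in NPC-NC (ILMN_1670383). They were 5.83, 5.97 and 5.86 in MS5-NC and 6.02, 6.90 and 6.49 in sox10-NC, whose arrays lay above all others. PCDH7 rose by 1.24 ± 0.23 log2 in sox10-NC against LSB (adjusted p 5.15e-04 in limma) and was 1.22 ± 0.23 lower in NPC-NC than in sox10-NC (7.71e-04). The lower groups were near background, as this probe was detected on 1 LSB array and 2 NPC-NC arrays. With the undetected arrays at the lowest signal detected on them, the folds were 2.35 and 2.32. A second probe, for another transcript, was called in these comparisons at 1.41 and -1.75, and also in MS5-NC against sox10-NC at -2.0 (adjusted p 4.56e-05), where the representative probe gave -0.58 and was not called (0.0708). Its sox10-NC levels were 6.20, 7.25 and 6.93. The MS5-NC mean thus lay above that of LSB on 1 probe and below it on the other, and only the first difference had an adjusted p under 0.05 (0.66 log2, 0.0322), short of 2-fold. The 2 remaining probes were detected on 1 array and on none.

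PCDH20, a solitary gene, was detected on every NPC-NC and MS5-NC array and on no other (ILMN_1703572). NPC-NC levels were 6.93, 5.49 and 6.0 and MS5-NC levels 7.29, 6.42 and 6.97. LSB arrays read 4.85, 4.40 and 4.84, and sox10-NC arrays 4.32, 4.31 and 4.68. Over LSB, PCDH20 was at least 1.90-fold higher in NPC-NC (adjusted p 0.00235 in limma), and for MS5-NC the bound was 3.21-fold (3.73e-05). Against sox10-NC the bounds were 1.68-fold (5.4e-04) and 2.83-fold (9.29e-06).

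PCDH15, which with CDH23 forms the tip links of inner ear hair cells, was detected on 3 arrays in all. Its levels in sox10-NC were 4.82, 6.36 and 6.19, detected on the last 2 (ILMN_1776685). LSB levels were 4.45, 4.52 and 4.62, NPC-NC levels 5.23, 4.47 and 4.45, with the first detected, and MS5-NC levels 4.38, 4.43 and 4.34. PCDH15 was at least 1.49-fold higher in sox10-NC than in LSB (adjusted p 0.00583 in limma), at least 1.54-fold higher than in MS5-NC (0.00293) and 2.11-fold higher than in NPC-NC (0.0222), whose arrays overlapped those of sox10-NC. With the 2 undetected NPC-NC arrays at the lowest signal detected on them, the last was 1.54-fold. Without NPC-NC replicate 1, or sox10-NC replicate 2 or 3, or where detection on all 3 arrays of a group was required, it no longer entered the test. The difference between NPC-NC and sox10-NC was also not called without NPC-NC replicate 2 or 3, with no detection filter, or with those groups fitted alone. The 2 other probes of PCDH15 were detected on no array and on 1. CDH23, its partner, was not detected on the sox10-NC arrays, where it was at least 1.41-fold lower than in LSB (0.00234).

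Of the 13 clustered genes tested, an alpha and a gamma gene were called, 2 of 13 in any comparison beside the 37.7% of all genes. The alpha genes PCDHA1, PCDHA2 and PCDHA9 were each detected on 11 arrays. PCDHA2 read 5.65, 6.15 and 5.79 in LSB, 4.78, 5.38 and 5.45 in NPC-NC, 5.46, 5.66 and 5.78 in MS5-NC and 6.81, 6.10 and 5.84 in sox10-NC (ILMN_1656033). The NPC-NC arrays lay below all others, and PCDHA2 was 1.05 ± 0.27 log2 lower in NPC-NC than in sox10-NC (adjusted p 0.00834 in limma). The fold fell under 2 without NPC-NC replicate 1 or sox10-NC replicate 1, and was 1.93 with the undetected NPC-NC array at the lowest signal detected on it. A second PCDHA2 probe was detected on no array.

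PCDHA1 ranged from 4.79 to 6.69 and PCDHA3 from 4.83 to 6.39, with no call. PCDHA9, from 4.50 to 7.06, came nearest, at 1.01 ± 0.40 higher in MS5-NC than in LSB (adjusted p 0.0533). The probes of an alpha gene did not all read alike. Of the 3 PCDHA3 probes, 1 that did not represent the gene was detected on every sox10-NC array, at 6.56, 5.75 and 6.76, against 4.90, 5.23 and 5.09 in LSB. When every detected probe was tested, it was called in sox10-NC against LSB, where it was not detected (at least 2.21-fold higher, adjusted p 0.00218), and was lower in NPC-NC (-1.46) and MS5-NC (-1.28) than in sox10-NC, where the representative PCDHA3 probe gave 0.60, -0.67 and -0.77 with no call. A second PCDHA9 probe was likewise called in sox10-NC against LSB (at least 1.65-fold higher, 0.00976, with no LSB array detected), where the representative gave 0.79. The remaining 3 probes of PCDHA1 and 1 of PCDHA9 were detected on no array, and the third PCDHA3 probe was detected on 4. Clustered genes share much sequence and the probes' own sequences were not used here, so a signal may hold RNA of a neighbouring gene.

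The beta genes, which have no introns and no shared constant exon, held 3 of the 4 members detected on all 12 arrays: PCDHB2, PCDHB5 and PCDHB9, beside PCDH18. None of these 8 was called in any comparison, where 37.7% of all genes were; 8 are few genes for such a share. PCDHB2 ranged from 8.56 to 9.65, PCDHB5 from 7.79 to 9.23 and PCDHB9 from 6.56 to 7.87. PCDHB3, PCDHB10, PCDHB12 and PCDHB15 lay between 4.70 and 6.67 and were detected on 6 to 11 arrays. A second PCDHB10 probe was called in no comparison when every detected probe was tested. Its sign was not always that of the representative, at 0.32 log2 in sox10-NC against LSB, where the representative gave -0.53. The differences of the 8 genes ran from -0.78 to 0.92 log2 over the 6 comparisons.

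PCDHB4 was detected on all arrays of NPC-NC and MS5-NC and on none of LSB and sox10-NC, as PCDH20 was. It read 5.31, 5.81 and 5.59 in NPC-NC and 5.50, 5.49 and 5.52 in MS5-NC. LSB arrays read 4.60, 4.70 and 4.79 and sox10-NC arrays 4.52, 4.94 and 4.51. Its adjusted p was 0.00439 to 0.00711 in the 4 comparisons between those pairs of groups, with bounds of 1.08-fold to 1.28-fold, so it missed the fold limit and not the p. PCDHB2 exceeded LSB by 0.76 ± 0.23 in MS5-NC (0.0132), and PCDHB5 was 0.78 ± 0.28 lower in MS5-NC than in sox10-NC (0.0421), each under 2-fold. The second probe of PCDHB2, also detected on all arrays, had means of 5.97 ± 0.30 in MS5-NC and 5.46 ± 0.11 in LSB (SD, n = 3). When every detected probe was tested, this difference of 0.51 had an adjusted p of 0.156 in limma.

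The 1 gamma gene tested, PCDHGB6, was highest in LSB, at 6.41, 6.13 and 6.06 (ILMN_1701644). NPC-NC arrays read 5.74, 5.60 and 5.26, MS5-NC arrays 5.76, 4.55 and 5.02, and sox10-NC arrays 5.38, 5.67 and 5.61. All arrays of the sorted groups lay below those of LSB. PCDHGB6 fell by 1.09 in MS5-NC (SE 0.27, adjusted p 0.00421 in limma), a call lost without LSB replicate 1 or MS5-NC replicate 2. With the 2 undetected MS5-NC arrays at the lowest signal detected on them the fold was 1.79. The differences of -0.67 in NPC-NC and -0.65 in sox10-NC were not called (0.0732 and 0.0735). Its second probe was detected on no array.

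Genes known to act with protocadherins were counted beside them. Of 14 tested genes of promoter choice and silencing, MAU2, which helps load cohesin, was the 1 gene called higher in each sorted group against LSB, by 1.03 ± 0.23 in NPC-NC (adjusted p 0.00263 in limma), 1.59 ± 0.23 in MS5-NC (3.73e-05) and 1.01 ± 0.23 in sox10-NC (0.00238). STAG1, a cohesin subunit, fell by 1.14 in MS5-NC (SE 0.26, 0.00211), and none of the 14 was called between sorted groups, with 2 to 4 at an unadjusted p under 0.05 in each. CTCF was tested and not called, while the silencer REST was detected in no group and so was not tested. Of 14 WAVE complex genes and cytoplasmic partners, none was called in NPC-NC or MS5-NC against LSB (5 in each at an unadjusted p under 0.05) or between the 2 (0 at that p). In sox10-NC against LSB 3 were higher, among them WASF2 (1.34 ± 0.27, 0.00109) and the kinase FYN (1.23 ± 0.22, 2.74e-04), and beta-catenin (CTNNB1) fell by 1.59 (SE 0.35, 0.00214). Against sox10-NC, 2 were higher and 1 lower in both NPC-NC and MS5-NC, with the WAVE subunit CYFIP2 higher by 1.64 ± 0.23 (2.99e-05) and 1.95 ± 0.23 (3.11e-06).

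Of 7 tested genes of the proteases that cut protocadherins, APH1B, a gamma-secretase subunit, rose against LSB by 1.18 ± 0.27 in NPC-NC (adjusted p 0.00344 in limma) and 1.32 ± 0.27 in MS5-NC (0.00101), and exceeded sox10-NC by 1.5 and 1.64. ADAM10, the sheddase of gamma protocadherins, fell by 1.37 in MS5-NC (SE 0.27, 6.36e-04), and none of the 7 was called in sox10-NC against LSB (3 at an unadjusted p under 0.05) or in NPC-NC against MS5-NC (1 at that p). Among 7 tested genes listed with the FAT, Dachsous and CELSR cadherins, 3 were higher and none lower in NPC-NC and in MS5-NC against LSB. In sox10-NC 2 were higher and 2 lower, the latter CDH23 and FJX1, which is not itself a cadherin. CELSR2 and CELSR3, of the planar polarity pathway, exceeded LSB by 2.80 ± 0.26 (8.64e-07) and 2.08 ± 0.29 (4.15e-05) in NPC-NC. In MS5-NC they exceeded it by 2.82 ± 0.26 and 3.02 ± 0.29, and in sox10-NC by 1.95 ± 0.26 and 1.78 ± 0.29. DCHS1, a Dachsous cadherin, was not detected in LSB or sox10-NC and was at least 3.48-fold higher in NPC-NC (1.17e-06) and 3.28-fold higher in MS5-NC (9.54e-07) than in LSB. The same list held 2 genes higher in NPC-NC and 3 in MS5-NC against sox10-NC, and none lower. It held no call between NPC-NC and MS5-NC (1 at an unadjusted p under 0.05).

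Markers of other cell types were counted in the same comparisons. Of 15 tested genes of neuronal differentiation, 13 were called higher in NPC-NC and 13 in MS5-NC against LSB, none lower, among them ELAVL3 (3.39 ± 0.44 and 3.92 ± 0.44 log2, adjusted p 2.1e-05 and 2.84e-06 in limma) and MAPT, at least 8.22-fold and 16.7-fold higher. In sox10-NC against LSB 8 were higher, led by NCAM1 (2.94 ± 0.32, 1.38e-06), and 3 lower, led by SYT1, at least 4.02-fold lower (4.87e-07). Against sox10-NC, 9 were higher and 1 lower in NPC-NC and 12 higher in MS5-NC, STMN4 by 4.83 ± 0.38 and 6.04 ± 0.38, and none was called between NPC-NC and MS5-NC (7 at an unadjusted p under 0.05). The summed linear level of the 15 was 2986 to 3405 on the LSB arrays, 14633 to 17976 in NPC-NC, 18926 to 26500 in MS5-NC and 3674 to 8868 in sox10-NC.

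Of 5 mesenchyme markers, 4 were higher in NPC-NC and in MS5-NC against LSB, and 1 in sox10-NC (COL1A1, 3.12 ± 0.29 log2, adjusted p 1.82e-07 in limma). Summed levels were 170 to 174 in LSB, 711 to 2556 in NPC-NC, 910 to 1679 in MS5-NC and 514 to 596 in sox10-NC. LUM, PRRX1 and TWIST1 were detected on no LSB array. The summed level of the 8 neural crest markers was 4983 to 6703 in sox10-NC, the group in which PCDH7 and PCDH15 were highest, and 207 to 369 on the other arrays. Of 3 pluripotency markers, NANOG and POU5F1 were detected on no array. ZFP42 had mean levels of 7.85 in LSB and 8.38 in sox10-NC, fell by 2.47 in MS5-NC against LSB (7.57e-05 in limma) and was at least 6.65-fold lower in NPC-NC (9.98e-06). Against sox10-NC it differed by -3.01 in MS5-NC (7.84e-06), and for NPC-NC the lower bound was 9.63-fold (7.44e-07). The part of any of these cell types in the protocadherin differences was not tested.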

How the data were processed

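Biotin-labelled cRNA made from total RNA was read on Illumina HT-12 arrays, per the labels; the submitters' processing notes name GenomeStudio. The deposited table, per the file headers, gives a mean bead intensity for each probe and array, not yet normalised, a detection p-value and a bead count. Another 12 columns, standard errors over beads, were not used. The authors' series matrix, an intensity scale whose steps are not given in the sources used here, served as an alternative. Columns were joined to samples by name, and the join was checked by rank correlation (1 with the same array, at most 0.817 with others).

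Probes were named through the platform annotation by Entrez ID, with symbols updated from RefSeq (GRCh38.p14), and only probes with 1 gene were tested. The deposited intensity was processed with neqc (background correction, quantile normalisation, log2, offset 16) from limma 3.58.1 in R 4.3.3. Probes detected (p under 0.01) on at least 3 of 12 arrays were kept, 1 per gene (highest mean), giving 11280 genes. The 6 differences between the 4 groups were tested two-sided with lmFit and eBayes and no covariate, with Benjamini-Hochberg adjustment over all 11280. Called genes had an adjusted p under 0.05, a 2-fold change, and detection on 2 or more arrays where they were higher. Alternatives were the background correction, offset, authors' matrix, detection filter and threshold, probe choice, replicate block, groups fitted, fold minimum, a floor for undetected arrays and each array left out. The script was tested on simulated data. The number of arrays limits the precision.

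The members and lists were chosen with earlier results of these data known. Every member called is given array by array, tested members by their range and undetected members by name; of each other list, up to 3 called genes per direction and comparison, largest first, among those detected on all 3 arrays of the higher group. Promoters were searched with Python 3.11.15. Replicate numbers were not used to pair the arrays in the main fit. Correlations of same-numbered arrays' deviations from their group means ran from -0.088 to 0.179. The 2 above 0.1 were both between NPC-NC and sox10-NC. Low correlations do not exclude a batch shared by same-numbered arrays, and the labels name none.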

Additional observations from a re-analysis of the deposited data

Results flagged for a closer look

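The change from LSB differed between sorted groups for 6 protocadherins, by the direct limma comparison of the groups. PCDH19 exceeded sox10-NC at least 7.48-fold in NPC-NC and at least 4.83-fold in MS5-NC, on 3 of 3 arrays in each. PCDH20 was at least 1.68-fold and at least 2.83-fold higher in the same comparisons, again on 3 of 3 arrays. PCDH9 was 2.86-fold higher in MS5-NC than in sox10-NC, or 2.04-fold with the 2 undetected sox10-NC arrays at their lowest detected signal. PCDH7 was 2.33-fold lower and PCDHA2 2.07-fold lower in NPC-NC than in sox10-NC (1.93-fold with the undetected NPC-NC array at its lowest detected signal). PCDH15 was below sox10-NC by 2.11-fold in NPC-NC (1.54-fold with the 2 undetected NPC-NC arrays so set) and by 1.54-fold or more in MS5-NC.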

How the results depend on the processing

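Of 20 calls of a protocadherin in a comparison, 5 held under all 23 alternatives (PCDH19 in NPC-NC against LSB and in both against sox10-NC, PCDH18 in MS5-NC against LSB, PCDH20 in MS5-NC against sox10-NC), and none reversed. Without background correction the counts called in MS5-NC against LSB, sox10-NC against LSB, NPC-NC against sox10-NC and MS5-NC against sox10-NC were 1, 0, 1 and 2; with an offset of 50 they were 0, 1 and 2 in the last 3. These settings ended 14 and 11 calls, 13 and 11 of them with an adjusted p still under 0.05, so by construction of the log scale it was the fold that fell short. Testing every detected probe gave 5 genes in sox10-NC against LSB. Without a fold minimum, an alternative chosen after seeing the data, 8 were called in MS5-NC against LSB. Leaving out 1 array at a time gave 2 to 5 calls in sox10-NC against LSB, 5 without LSB replicate 1; the cause was not tested. The other comparisons gave 2 to 3, 5 to 6, 0, 4 to 6 and 3 to 5. The replicate block left all 6 counts as they were (3, 5, 3, 0, 5 and 4). With undetected arrays of a partly detected lower group at their lowest detected signal, again chosen after seeing the data, PCDHA2 and PCDH15 in NPC-NC against sox10-NC and PCDHGB6 in MS5-NC against LSB fell short of 2-fold. Where no array of the lower group was detected, further bounds were under 2-fold. They were those of PCDH20 in NPC-NC against LSB (1.90) and sox10-NC (1.68) and of PCDH19 in sox10-NC against LSB (1.76). PCDH15 had bounds of 1.49 in sox10-NC against LSB and 1.54 in MS5-NC against sox10-NC. A detection p under 0.05, also chosen after seeing the data, changed no count. Over all genes tested, calls in the 6 comparisons numbered 1696, 2358, 2077, 9, 1583 and 1955, against 633, 988, 836, 3, 641 and 834 without background correction, 950, 1449, 1260, 9, 947 and 1200 with an offset of 50 and 3231, 4358, 3757, 9, 2497 and 3296 without a fold minimum, and leaving out 1 array gave 3 to 33 for NPC-NC against MS5-NC.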

Other observations

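Protocadherin genes outside the 63 were read by a few probes. A probe of the beta pseudogene PCDHB17P was detected on all 12 arrays, with means of 8.01 ± 0.13 in LSB, 8.21 ± 0.45 in NPC-NC, 7.65 ± 0.55 in MS5-NC and 7.67 ± 0.30 in sox10-NC (SD, n = 3). PCDHB19P was also detected on all, at 5.49 ± 0.07, 6.18 ± 0.08, 6.29 ± 0.22 and 6.35 ± 0.58 in the same order. PCDHB18P had means of 5.60 ± 0.27 in LSB, 4.85 ± 0.47 in NPC-NC, 4.59 ± 0.07 in MS5-NC and 5.53 ± 0.28 in sox10-NC. It was detected on all 3 LSB arrays, on 1 array each of NPC-NC and sox10-NC and on none of MS5-NC. PCDH11X was detected by 1 probe on 2 LSB arrays and by another on 1, and on no array of the sorted groups.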
